A study of Mus musculus with 282 samples.

Results

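Transcripts were measured in livers of wild-type male C57BL/6J mice kept under arrhythmic feeding (AF livers) and in livers of the same genotype, strain and sex fed only at night (NF livers). Each arm was sampled at ZT 2, 6, 10, 14, 18 and 22, where ZT is the number of hours after lights on, with 3 libraries at each time. The members of the comparison were therefore the 36 uninjected wild-type control libraries of these arms, 18 AF and 18 NF, out of 282 libraries in the series. All mice had 12 h of light and 12 h of dark, individual cages and water at all times. RNA came from the lateral lobe of the liver, and 3′-end libraries were made, so that a read count follows the number of transcripts and not their length. The meal times of the arrhythmic schedule, the ages of the mice and the number of animals behind a library were not given in the sources used here, so p-values measure the spread between these libraries. As further references served 18 libraries of uninjected night-fed mice that carry the Albumin-Cre transgene (Cre recombinase under a hepatocyte promoter) and 18 of vehicle-injected night-fed wild types, at the same times; 18 libraries of ad libitum fed wild types give one more level beside some results.

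The mouse liver keeps time in more than one way. A cell-autonomous clock, in which ARNTL (BMAL1) and CLOCK drive the genes of their own repressors PER, CRY and REV-ERB, sets one group of rhythms, and meals set another through insulin, glucagon, amino acids, fatty acids and body temperature. Mice eat mostly in the dark, so night feeding keeps both inputs aligned, whereas feeding without a daily rhythm removes the regular fast of the light phase. The comparison asks which liver rhythms and which average levels differ between mice that have a daily feeding rhythm and mice that do not, both with an intact clock.

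The AF libraries held 7.09 to 11.8 M reads (M, 10 to the power of 6; median 8.74) and the NF libraries 4.85 to 8.54 M (median 5.76), so the AF values carry less counting error, and a count of 3 reads, the limit that a count of 0 allows, stood at 0.255 to 0.423 RPM (reads per M reads) in AF livers and 0.351 to 0.619 RPM in NF livers. The spread between libraries of one arm and time had a median SD of 0.261 log2 units in AF livers and 0.313 in NF livers. Mitochondrially encoded transcripts took a median of 18.4% of AF reads and 15.0% of NF reads; depth and this share moved with the arms, and their part in the results was not tested, except that thinning every library to the smallest depth gave 4737 daily mean calls, against 5094 at full depth. Summed over 7 hepatocyte markers, levels ran from 63154 to 104326 RPM in AF livers and from 65593 to 85418 RPM in NF livers, and the 12 Kupffer cell markers from 227 to 385 RPM in AF livers and 140 to 451 RPM in NF livers. Of 12 sinusoidal endothelial markers, 6 were lower and 0 higher in AF livers in the daily mean (19.3% and 22.2% of all genes were). The medians of their sum were 342 RPM in AF and 381 RPM in NF livers. Of the hepatocyte markers 2 were higher and 2 lower, and of the Kupffer cell markers 2 higher and 0 lower. In whole liver, fewer cells of a type and less RNA per cell cannot be told apart. Among 12292 genes that averaged at least 1 RPM, the 3 AF and 3 NF libraries of a time did not overlap in 24% of genes at ZT 2, 25.1% at ZT 6, 31.1% at ZT 10, 27.8% at ZT 14, 22.8% at ZT 18 and 20.5% at ZT 22.

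Rhythms were flatter in AF livers. A 24 h rhythm passed the test (limma, adjusted p under 0.05) in 993 genes in AF livers (8.08% of 12292) and in 2729 in NF livers (22.2%), and 681 genes (5.54%) passed in both. Those 681 had a median amplitude of 0.45 in AF livers and 0.59 in NF livers, where amplitude is the log2 distance from the daily mean to the fitted peak. Their fitted peaks lay within 2 h of each other in 460 genes, and 475 of the 681 peaked earlier in AF livers, by a median difference of -0.91 h. Tested directly, the rhythm differed between the arms in 385 genes (3.13% of 12292, or 2.96% with the lower amplitude in AF livers). The amplitude was lower in AF livers in 364 of the 385 and higher in 21. Without the libraries numbered 1, 2 or 3 in both arms, the count was 127, 38 or 121 genes, and with any single library left out it was 292 to 451. Of 12119 genes tested against NF, Albumin-Cre and vehicle-injected livers, 130 differed in rhythm in the same direction against all 3. In 128 of the 130 the amplitude was lower in AF than in NF livers. The 3 comparisons share the AF libraries. A set of rhythms chosen in a night-fed arm outside the comparison was also followed. Genes rhythmic only under arrhythmic feeding could not enter it, so the choice favoured a lower amplitude and a more distant peak in AF livers. The AF libraries also entered the scaling and the filter on low genes for this set. Of 2841 tested genes that were rhythmic in the Albumin-Cre night-fed arm, 2443 (86.0%) had a lower amplitude in AF than in NF livers, with medians of 0.20 in AF and 0.37 in NF livers. The fitted peak fell within 4 h of the Albumin-Cre arm for 66.3% of these genes in AF livers and for 94.4% in NF livers.

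The core clock kept running in AF livers, with a shallower oscillation. Most clock genes peaked earlier, as did most of all genes rhythmic in both arms. Of 22 clock and clock output genes, 19 were rhythmic in AF livers and 21 in NF livers, and those 19 were rhythmic in both. The members of this and the other gene lists were chosen with earlier results of these data known. List shares above the share over all genes may therefore be partly built in. Over the 22 the median amplitude was 1.20 in AF livers and 1.68 in NF livers, against 0.15 and 0.22 over all genes tested. In 20 of the 22 the amplitude was lower in AF livers, a share that was not counted over all genes. Of the 19 rhythmic in both arms, 14 peaked earlier in AF livers, by a median difference of -0.96 h. This was near the 475 of 681 over all genes rhythmic in both arms (median -0.91 h). With the Albumin-Cre arm as reference 18 of 19 peaked earlier (median -1.72 h), and with the vehicle-injected arm 16 did (median -1.30 h); these comparisons share the AF libraries.

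The rhythm itself differed in 6 of the 22 clock genes, against 3.13% of all genes, and in each the amplitude was lower in AF livers. Dbp (chromosome 7, 45705088 to 45710203), a transcription factor driven directly by ARNTL and CLOCK, had 4.38, 12.6 and 20.1 RPM in AF livers at ZT 2, against 0.935, 1.01 and 1.14 RPM in NF livers. The AF libraries all lay above the NF libraries at that time (log2 difference 2.85 ± 0.42, SE, n = 3 each; limma adjusted p = 0.000249). The fitted peak of Dbp lay at ZT 8.72 ± 0.26 in AF livers and at ZT 10.02 ± 0.21 in NF livers (SE, n = 18 each). Bhlhe41, which encodes the repressor DEC2, had 1.98, 4.09 and 4.24 RPM in AF livers at ZT 2, against 0.502, 0.561 and 0.852 RPM in NF livers (limma adjusted p = 0.0177). It peaked at ZT 6.61 ± 0.49 in AF livers and ZT 9.11 ± 0.31 in NF livers, with amplitudes of 1.22 and 1.94. For both genes each AF library exceeded each NF library 2 h after lights on. In NF libraries 1, 2 and 3 of ZT 2, 3 reads stood at 0.545, 0.455 and 0.523 RPM. The NF values of both genes thus rest on few reads, and those of Bhlhe41 lie near that limit. Tef, another factor of the same D-box family as Dbp, had 34.6, 58.0 and 70.7 RPM in AF livers at ZT 2, against 21.6, 24.1 and 30.0 RPM in NF livers.

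On the repressor side, Per2 had 13.2, 21.1 and 24.5 RPM in AF livers at ZT 18, against 38.3, 39.0 and 52.8 RPM in NF livers, with no overlap (log2 difference -1.15 ± 0.33; limma adjusted p = 0.0365). Cry1 peaked at ZT 18.1 in AF livers and ZT 19.3 in NF livers. All 6 rhythm calls were lost without the libraries numbered 2, or those numbered 3, in both arms. Leaving out 1 library ended the call of Per2 in 24 of 36 cases (limma adjusted p up to 0.104), of Bhlhe40 in 17 (up to 0.0824), of Cry1 in 4 (AF replicate 1 of ZT 10 and 3 of ZT 22, NF replicate 3 of ZT 10 and 2 of ZT 22; up to 0.0763) and of Tef without AF replicate 3 of ZT 2 (0.0522). The other 16 clock genes did not pass against NF livers: for Arntl the limma adjusted p was 0.0517, for Nr1d1 (REV-ERBα) 0.375 and for Usp2 0.794, and those of the others, Noct, Per3, Wee1, Rora, Nfil3, Hlf, Npas2, Nr1d2, Ciart, Cry2, Per1 and Clock among them, lay between. Arntl peaked at ZT 20.4 in AF and ZT 21.4 in NF livers with amplitudes of 1.81 and 2.27, and its daily mean was lower in AF livers (-0.41 ± 0.12; limma adjusted p = 0.0084). That daily mean call was lost with edgeR, with the ad libitum arm in the fit and without the libraries numbered 1, and against the Albumin-Cre and vehicle-injected arms the difference was 0.076 and 0.26, not past the threshold. With the Albumin-Cre arm as reference 14 of the 22 clock genes differed in rhythm (5.51% of all genes), and with the vehicle-injected arm 6 did (2.21%). Nr1d1 passed against both (limma adjusted p = 0.000191 and 0.0051), whereas Bhlhe41, Per2, Cry1 and Bhlhe40 did not pass against the vehicle-injected arm, nor Bhlhe40 against the Albumin-Cre arm.

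**Figure D1:**
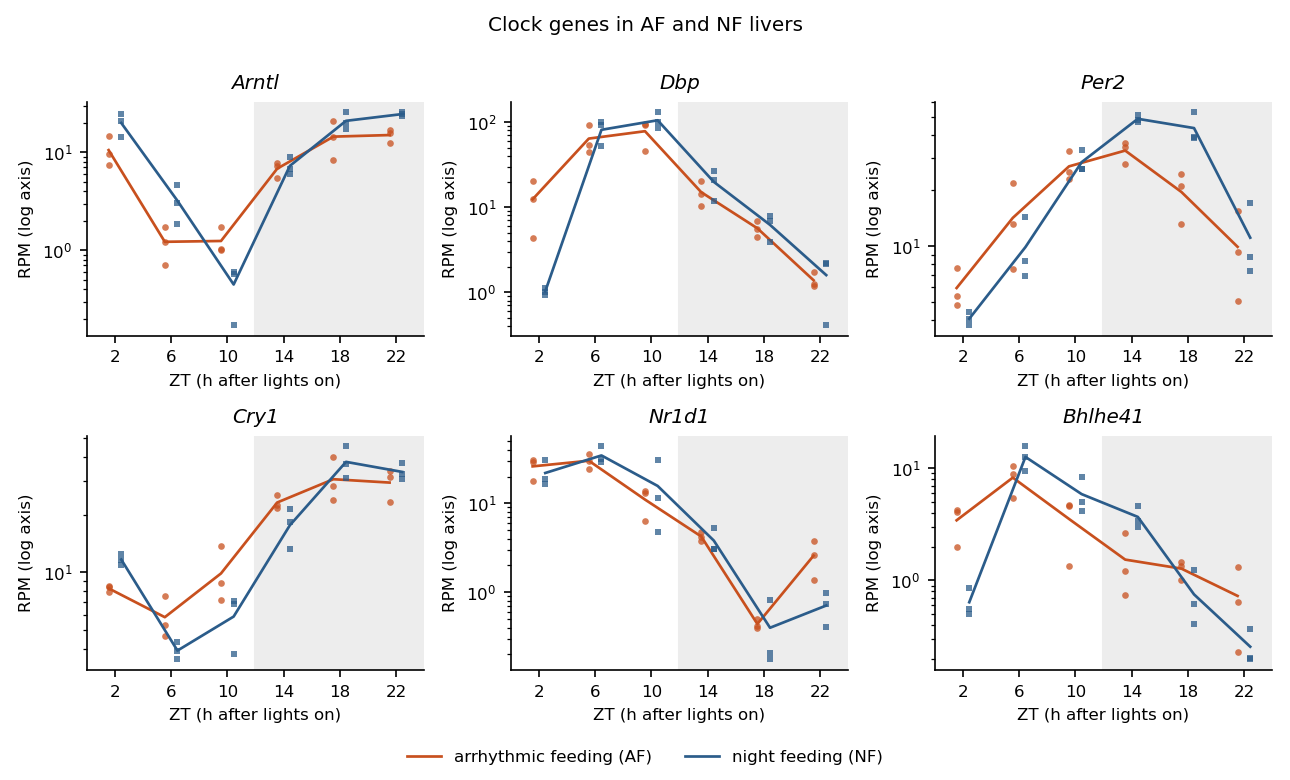
Level of 6 clock genes in each library (RPM, log axis) against ZT (h), AF livers as orange circles and NF livers as blue squares, lines joining the means of the 3 libraries at a time and the dark phase shaded. At ZT 2 the 3 AF libraries of Dbp and of Bhlhe41 lie above the 3 NF libraries, and both genes peak earlier in AF livers.

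Among genes that respond to meals, most of those that differed in rhythm had the lower amplitude in AF livers. Of 22 insulin, FOXO and feeding-response genes, 8 were rhythmic in AF livers and 18 in NF livers (8.08% and 22.2% of all genes), with median amplitudes of 0.44 and 0.75. The rhythm differed in 7 (3.13% of all genes did), 6 with the lower and 1 with the higher amplitude in AF livers. Whether or not they passed, 17 of the 22 had the lower amplitude. That share was not counted over all genes, whose median amplitudes were 0.15 in AF and 0.22 in NF livers. Ppp1r3b (chromosome 8, 35375739 to 35388139), which brings protein phosphatase 1 to glycogen, had 163, 165 and 391 RPM in AF livers at ZT 6, against 16.9, 21.0 and 36.3 RPM in NF livers. At ZT 10 it had 201, 380 and 429 RPM in AF livers, against 48.8, 52.4 and 68.1 RPM in NF livers. In the middle of the light phase the groups were far apart (log2 difference at ZT 6 of 3.19 ± 0.37, n = 3 each; limma adjusted p = 2.55e-06), and the fitted amplitude was 0.50 in AF livers and 1.86 in NF livers. Angptl8, a secreted regulator of lipoprotein lipase that is made after meals, had 6.69, 24.0 and 26.4 RPM in AF livers at ZT 10, against 2.59, 3.12 and 3.95 RPM in NF livers. For Ppp1r3b and Angptl8 the AF libraries lay above the NF libraries at ZT 10 without overlap, a time when both were low in NF livers.

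For Tsku, which encodes a secreted hepatokine, the groups changed order with the time of day. It had 9.11, 10.4 and 16.4 RPM in AF livers at ZT 6, against 1.86, 3.22 and 4.35 RPM in NF livers. At ZT 14 it had 17.0, 20.9 and 22.6 RPM in AF livers, against 33.7, 40.6 and 56.0 RPM in NF livers. The groups did not overlap at either time, higher in AF livers at ZT 6 (log2 difference 1.79 ± 0.34; limma adjusted p = 0.0021) and lower at ZT 14 (-1.07; limma adjusted p = 0.0438). Alas1, the first enzyme of heme synthesis, which fasting induces, had 83.8, 164 and 168 RPM in AF livers at ZT 2, against 27.9, 40.9 and 44.9 RPM in NF livers. At ZT 14 it had 156, 171 and 209 RPM in AF livers, against 469, 655 and 768 RPM in NF livers, a complete separation in the other direction (-1.80 ± 0.39; limma adjusted p = 0.0044). Camk1d, a calcium- and calmodulin-dependent kinase, had 48.5, 63.4 and 79.2 RPM in AF livers at ZT 14, against 11.3, 14.6 and 17.9 RPM in NF livers. Camk1d was thus high at the start of the dark phase in AF livers, and its amplitude was 0.43 in AF livers and 1.43 in NF livers. The rhythm calls of Ppp1r3b, Tsku, Alas1 and Camk1d held under each alternative analysis tried.

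**Figure D2:**
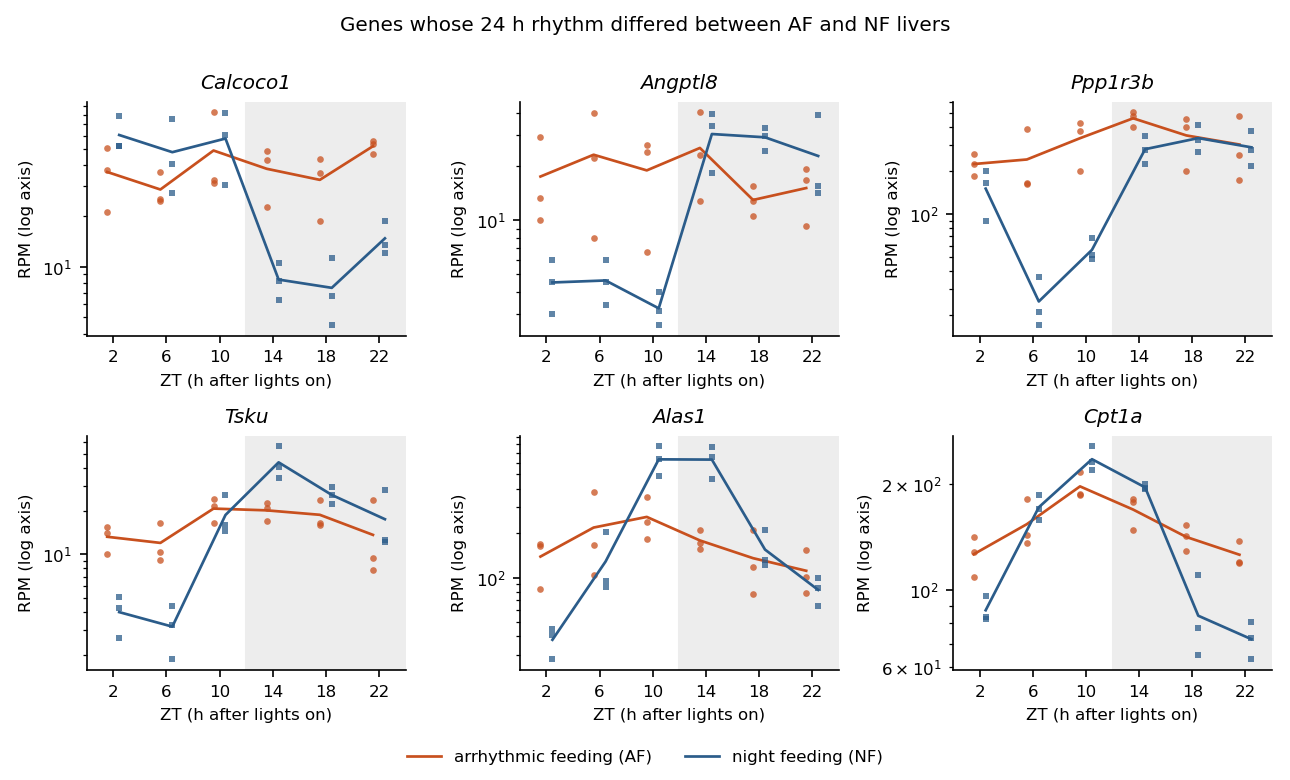
Level of 6 genes in each library (RPM, log axis) against ZT (h), AF livers as orange circles, NF livers as blue squares, lines through the means of the 3 libraries and the dark phase shaded. The AF lines of Ppp1r3b, Angptl8 and Tsku lack the light-phase trough of the NF lines, and the AF lines of Calcoco1 and Cpt1a lack the NF trough in the dark phase.

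The fatty acid synthesis genes whose daily mean was called were higher in AF livers, with 9 of the 19 not passing. Of the 19 tested, 10 were higher and 0 lower by limma (background 22.2% higher and 19.3% lower of 12292; 2 lower at an unadjusted p under 0.05, 2 lower by edgeR and 2 by DESeq2), with a median log2 difference of 0.30 against 0.02 over all genes. Against the Albumin-Cre arm 6 were higher (median 0.13; 9.71% of all genes were higher), and against the vehicle-injected arm 3 were higher and 1 lower (median 0.01), near the 13.8% of all genes called in each direction. The difference was gathered before and after lights off: the list's median stood at 0.72 at ZT 10 and 0.60 at ZT 14, against 0.28 at ZT 6. Of the 19, 3 were rhythmic in AF livers and 12 in NF livers (8.08% and 22.2% of all genes). The rhythm differed in 7 (3.13% of all genes did), each with the lower amplitude in AF livers. In 6 of the 7 the fitted peaks lay over 6 h apart, but 5 of the 7 were not rhythmic in AF livers, where a fitted peak is poorly defined. Fasn (chromosome 11, 120805846 to 120824547), the fatty acid synthase, had 496, 971 and 1086 RPM in AF livers at ZT 10, against 74.9, 95.3 and 242 RPM in NF livers. The AF libraries lay above the NF libraries (log2 difference 2.74 ± 0.50, n = 3 each; limma adjusted p = 0.00117), and the amplitude was 0.48 in AF and 1.28 in NF livers. Acly, which makes cytosolic acetyl-CoA from citrate, had 149, 218 and 268 RPM in AF livers at ZT 10, against 62.0, 70.2 and 112 RPM in NF livers. Mid1ip1 (chromosome X, 10715013 to 10719690), whose product promotes the assembly of acetyl-CoA carboxylase, had 77.8, 101 and 122 RPM in AF livers at ZT 10, against 14.6, 19.5 and 27.5 RPM in NF livers. Its fitted peak lay at ZT 8.79 ± 0.86 in AF livers and ZT 18.19 ± 0.33 in NF livers, so that the gene was highest in the light phase in one arm and in the dark phase in the other (limma adjusted p of the rhythm difference 4.41e-07). Acacb, the acetyl-CoA carboxylase of the mitochondrial surface, had 63.0, 64.8 and 75.9 RPM in AF livers at ZT 14, against 9.24, 14.5 and 18.5 RPM in NF livers. Its rhythm call was lost without AF replicate 1 of ZT 2 (limma adjusted p = 0.0582). It was also lost without the libraries numbered 1 or 2 (limma adjusted p up to 0.282). The calls of Fasn and Acly were lost without the libraries numbered 1.

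In cholesterol synthesis the daily mean changed in both directions against NF livers. Most genes that differed in rhythm had a lower amplitude in AF livers and were not rhythmic there. Of 25 genes of the pathway and targets of SREBP2, 7 were higher and 6 lower in the daily mean (22.2% and 19.3% of all genes). The rhythm differed in 16 (3.13% of all genes did), 15 of them with the lower amplitude in AF livers. The test takes amplitude and peak time jointly, and in 14 of the 16 the fitted peaks lay over 6 h apart. However, 11 of the 16 were not rhythmic in AF livers, where a fitted peak is then poorly defined. In the daily mean 9 were higher against the Albumin-Cre arm (9.71% of all genes). Against the vehicle-injected arm 6 were higher and 1 lower (13.8% of all genes each way). The list's median log2 difference was 0.59 at ZT 10 and -0.49 at ZT 18, with 7 genes higher and 1 lower at ZT 10 and 5 lower at ZT 18. Insig1, which holds the SREBP escort protein in the endoplasmic reticulum (ER) when sterols are plentiful, had 63.4, 70.3 and 77.5 RPM in AF livers at ZT 18, against 204, 256 and 274 RPM in NF livers. The libraries did not overlap (log2 difference -1.78 ± 0.26; limma adjusted p = 0.000207). Sc5d, which works late in the pathway, had 574, 593 and 751 RPM in AF livers at ZT 10, against 235, 291 and 384 RPM in NF livers. Msmo1, a sterol demethylase, peaked at ZT 9.72 ± 0.90 in AF livers and ZT 21.91 ± 0.77 in NF livers, and its call was lost without the libraries numbered 1 or 2.

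Cytosolic chaperones of the heat shock response had a strong rhythm in NF livers that was reduced in AF livers. These proteins keep other proteins folded, their genes are driven by HSF1, and in mice their liver rhythm is known to follow body temperature and feeding. Of 25 heat shock genes, 15 were rhythmic in AF livers and 23 in NF livers (8.08% and 22.2% of all genes), with median amplitudes of 0.29 and 0.65. The rhythm differed in 11 (3.13% of all genes did), each with the lower amplitude in AF livers, in a list chosen with earlier results known. Those 11 peaked between ZT 14.4 and ZT 19.2 in NF livers. Of the 15 rhythmic in both arms, 13 peaked earlier in AF livers (median -0.71 h), against 475 of 681 over all genes (median -0.91 h). The promoters of 4 chaperone genes are shown before their values, since cytosolic and ER chaperone promoters differed in the motif they held: the heat shock element (GAA, TTC and GAA, each 2 bases apart), sought on both strands in the 250 bases before and 50 bases after the gene start (RefSeq, GRCm38.p6), was in 5 of 20 matched heat shock genes (25.0%), 0 of 24 matched ER genes and 52 of 8941 tested genes (0.582%). The ER stress element (CCAAT and CCACG, 9 bases apart) was in 8 of the 24 ER genes (33.3%), 0 of the 20 heat shock genes and 15 of the 8941 (0.168%). Capitals mark the match, which reads on the opposite strand in Hsph1 and Creld2 and in the middle match of Chordc1. Hsph1 (chr5:149636287-149636586, minus strand) and Chordc1 (chr9:18292017-18292316, plus strand, 3 overlapping matches) hold the heat shock element, and Creld2 (chr15:88819396-88819695, plus strand) and Hspa5 (chr2:34771840-34772139, plus strand) the ER stress element.
Hsph1: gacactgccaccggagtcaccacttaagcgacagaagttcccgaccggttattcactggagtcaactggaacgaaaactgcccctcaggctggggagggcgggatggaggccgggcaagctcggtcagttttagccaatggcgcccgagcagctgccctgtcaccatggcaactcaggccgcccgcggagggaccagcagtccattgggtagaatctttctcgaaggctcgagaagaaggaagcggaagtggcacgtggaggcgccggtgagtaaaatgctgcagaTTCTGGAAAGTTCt
Chordc1: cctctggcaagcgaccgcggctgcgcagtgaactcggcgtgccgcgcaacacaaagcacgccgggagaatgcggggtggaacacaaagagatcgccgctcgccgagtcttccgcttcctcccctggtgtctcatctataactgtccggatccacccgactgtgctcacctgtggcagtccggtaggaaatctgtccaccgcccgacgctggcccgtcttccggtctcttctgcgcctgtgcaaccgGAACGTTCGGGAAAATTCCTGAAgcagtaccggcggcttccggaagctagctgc
Creld2: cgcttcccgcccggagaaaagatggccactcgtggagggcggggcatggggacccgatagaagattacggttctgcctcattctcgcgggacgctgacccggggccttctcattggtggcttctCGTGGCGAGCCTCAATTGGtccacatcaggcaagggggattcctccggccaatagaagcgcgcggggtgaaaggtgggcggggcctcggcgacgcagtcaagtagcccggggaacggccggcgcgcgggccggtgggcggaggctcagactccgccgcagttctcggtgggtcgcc
Hspa5: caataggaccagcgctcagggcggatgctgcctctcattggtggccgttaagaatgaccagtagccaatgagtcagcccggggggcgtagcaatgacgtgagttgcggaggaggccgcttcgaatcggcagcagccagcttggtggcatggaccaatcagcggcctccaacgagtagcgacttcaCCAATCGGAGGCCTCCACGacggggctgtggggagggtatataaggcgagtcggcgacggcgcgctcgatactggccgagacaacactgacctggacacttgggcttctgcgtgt

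Among the genes that differed in rhythm, the heat shock element was in 2 of 8 matched heat shock genes and the ER stress element in 5 of 11 matched ER genes. Hsph1, a nucleotide exchange factor of HSP70, had 47.2, 57.0 and 68.8 RPM in AF livers at ZT 14, against 86.0, 112 and 164 RPM in NF livers. At ZT 6 it had 19.4, 20.3 and 21.9 RPM in AF livers, against 12.0, 12.6 and 13.2 RPM in NF livers. The arms did not overlap at either time, with lower levels in AF livers at ZT 14 (log2 difference -1.02 ± 0.20; limma adjusted p = 0.0026) and higher ones at ZT 6 (0.68 ± 0.20; limma adjusted p = 0.0414). Hsp90aa1 (chromosome 12, 110690605 to 110702728), the inducible HSP90, had 303, 322 and 347 RPM in AF livers at ZT 6, against 176, 177 and 197 RPM in NF livers. At ZT 18 it had 498, 549 and 624 RPM in AF livers, against 798, 867 and 905 RPM in NF livers. Its amplitude was 0.50 in AF and 1.25 in NF livers, and its peaks lay at ZT 17.3 and ZT 17.7, a shift of -0.44 h, against -2.05 and -1.74 h with the Albumin-Cre and vehicle-injected arms as reference. Chordc1, an HSP90 partner, had 67.0, 68.5 and 79.9 RPM in AF livers at ZT 14, against 83.5, 108 and 124 RPM in NF livers, which did not overlap. Hspa8, the constitutive HSP70, had 81.9, 91.8 and 93.0 RPM in AF livers at ZT 2, against 26.8, 31.4 and 50.9 RPM in NF livers. Hspa8 was also higher in the daily mean (0.73 ± 0.08; limma adjusted p = 2.85e-08). Dnaja1, an HSP40 co-chaperone, peaked at ZT 11.9 in AF livers and ZT 14.5 in NF livers.

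Of 29 ER chaperone and unfolded protein response genes, 3 were rhythmic in AF livers and 18 in NF livers (8.08% and 22.2% of all genes). The 13 that differed in rhythm (3.13% of all genes did) were not rhythmic in AF livers, and their fitted peaks lay over 6 h apart. Their amplitudes ran from 0.06 to 0.25 in AF livers and from 0.20 to 0.96 in NF livers. Hspa5 (BiP), the main HSP70 of the ER, had 726, 843 and 998 RPM in AF livers at ZT 6, against 466, 470 and 566 RPM in NF livers. At ZT 18 it had 560, 615 and 756 RPM in AF livers, against 1066, 1193 and 1285 RPM in NF livers. The order of the arms reversed between day and night without overlap (log2 difference 0.77 ± 0.16 at ZT 6 and -0.88 ± 0.16 at ZT 18; limma adjusted p = 0.0049 and 0.0018). Creld2, an ER-stress-inducible disulfide isomerase, had 6.68, 8.08 and 9.83 RPM in AF livers at ZT 18, against 18.4, 22.4 and 33.6 RPM in NF livers. Dnajb11, an ER HSP40, had 30.4, 34.6 and 42.6 RPM in AF livers at ZT 18, against 61.5, 70.0 and 84.9 RPM in NF livers. All 3 ER genes were lower in each AF library than in each NF library at ZT 18. In the daily mean 11 of the 29 were higher and 7 lower, against 41.4% of all genes called. With the Albumin-Cre arm as reference 2 were lower (18.3% of all genes called), and with the vehicle-injected arm 2 were higher and 5 lower (27.6% called).

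**Figure D3:**
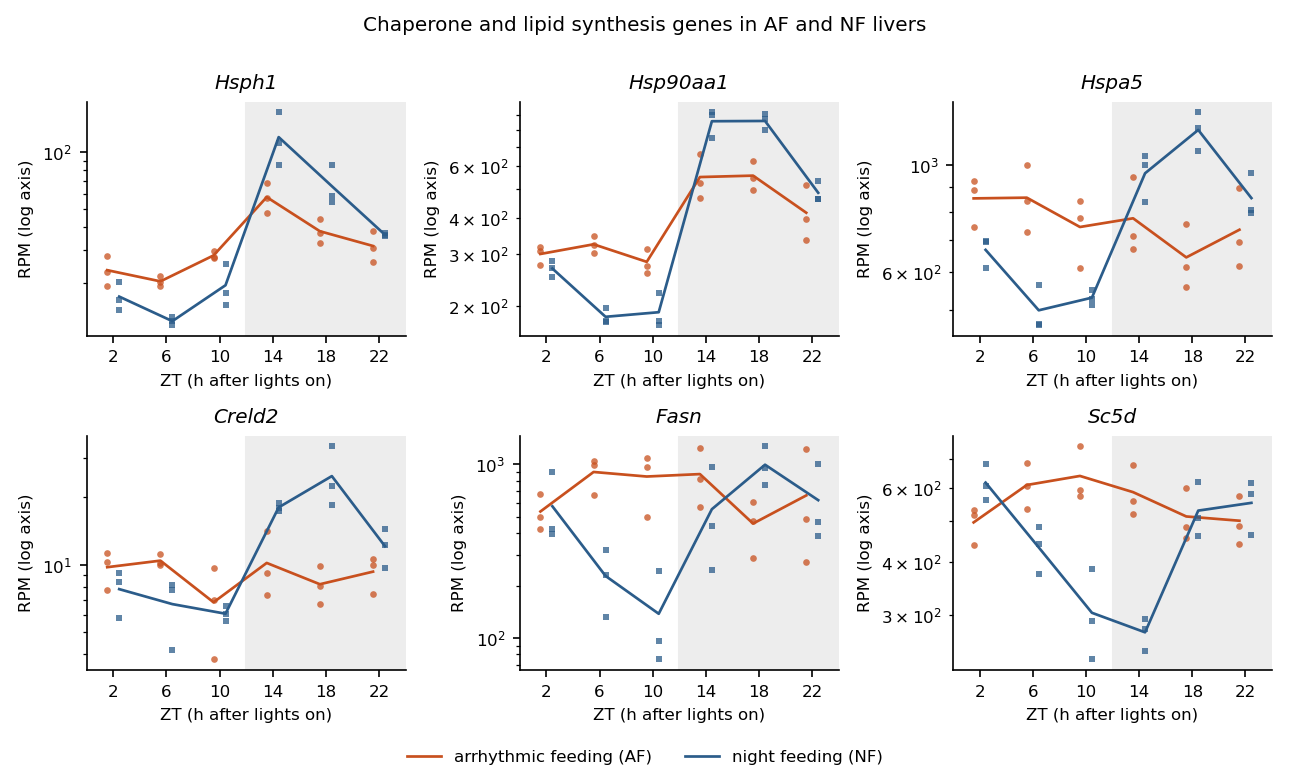
Level of 4 chaperone genes, Fasn and Sc5d in each library (RPM, log axis) against ZT (h), AF livers as orange circles, NF livers as blue squares, lines through the means of the 3 libraries and the dark phase shaded. The chaperone lines of AF livers lie above those of NF livers at ZT 6 and below them at ZT 18, and Fasn and Sc5d are higher in the AF libraries at ZT 10.

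The autophagy genes Calcoco1 and Gabarapl1 and the fatty acid oxidation gene Cpt1a peaked in the light phase in NF livers and were higher in AF than in NF livers at ZT 18. Calcoco1 (chromosome 15, 102706777 to 102722178), which encodes an autophagy receptor for the ER, peaked at ZT 5.37 in NF livers. At ZT 22 it had 46.4, 53.5 and 55.7 RPM in AF livers, against 12.1, 13.4 and 18.7 RPM in NF livers, and the groups also did not overlap at ZT 14 and ZT 18. Its amplitude was 0.10 in AF and 1.65 in NF livers, and its rhythm call was lost without the libraries numbered 1 (adjusted p = 0.0599). Over 21 autophagy genes, 3 were rhythmic in AF livers and 14 in NF livers (8.08% and 22.2% of all genes). The rhythm differed in 4 (3.13% of all genes did), but in 2 against each of the Albumin-Cre and vehicle-injected arms (5.51% and 2.21%). Gabarapl1, an ATG8 homologue under FOXO control, had 146, 155 and 164 RPM in AF livers at ZT 18, against 84.9, 104 and 115 RPM in NF livers, and its rhythm call was lost without the libraries numbered 1 or 2. Cpt1a (chromosome 19, 3322334 to 3385733), the gate for fatty acid entry into mitochondria, had 119, 120 and 138 RPM in AF livers at ZT 22, against 63.1, 72.7 and 80.5 RPM in NF livers. Its amplitude was 0.32 in AF and 0.94 in NF livers (limma adjusted p of the rhythm difference 0.000112, and 0.0540 without the libraries numbered 2). Cpt1a was 1 of 25 fatty acid oxidation genes, and the rhythm test passed in none of the other 24, so that the list was near the share over all genes. Klf9, a glucocorticoid-induced and clock-linked repressor, had 193, 268 and 291 RPM in AF livers at ZT 10, against 409, 456 and 509 RPM in NF livers. At ZT 14 the order turned round, with 204, 224 and 313 RPM in AF livers, against 112, 164 and 182 RPM in NF livers.

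Of 26 genes of gluconeogenesis and amino acid catabolism, 0 differed in rhythm by limma, near the 3.13% of all genes (6 at an unadjusted p under 0.05, 0 with edgeR and 0 with DESeq2), and the median amplitude was 0.31 in AF and 0.30 in NF livers. In the daily mean 8 were higher and 7 lower, against 41.4% of all genes called in either direction. G6pc, which releases glucose from glucose 6-phosphate, was higher in AF livers (0.83 ± 0.12; limma adjusted p = 2.73e-06), and so was Arg1 of the urea cycle (0.55), while the alanine aminotransferase Gpt was lower (-0.58). Ribosome biogenesis genes, which follow nutrient signalling, were rhythmic in 0 of 32 cases in AF livers by limma (4 at an unadjusted p under 0.05, 0 by edgeR and 0 by DESeq2). In NF livers 14 were rhythmic, and over all genes 8.08% were in AF and 22.2% in NF livers. The rhythm difference passed in 3 of the 32 (3.13% of all genes). It passed in 8 and 2 against the Albumin-Cre and vehicle-injected arms (5.51% and 2.21% of all genes). Among the 3 was Wdr12, with an amplitude of 0.06 in AF and 0.48 in NF livers and a peak at ZT 15.4 in NF livers. The call of Wdr12 was lost without the libraries numbered 1 or 3.

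Among the 681 genes rhythmic in both arms, the fitted peaks lay over 6 h apart in 14. They also did in 184 of the 385 genes that differed in rhythm, of which 259 were rhythmic in NF livers only. The 21 genes with the higher amplitude in AF livers were 0.171% of those tested. Srsf3, a splicing factor, had 36.9, 37.8 and 38.5 RPM in AF livers at ZT 18, against 54.8, 55.2 and 65.6 RPM in NF livers. It was rhythmic in AF livers, with an amplitude of 0.37 and a peak at ZT 7.76, and did not pass in NF livers, where its amplitude was 0.18. The related Srsf2 peaked at ZT 6.83 ± 0.98 in AF and ZT 17.33 ± 0.96 in NF livers. Both calls were lost without the libraries numbered 1 or 2, and that of Srsf3 also without those numbered 3. Cdkn1a, the cell cycle inhibitor p21, had 26.0, 44.4 and 75.3 RPM in AF livers at ZT 14, against 3.19, 5.47 and 13.9 RPM in NF livers (log2 difference 2.72 ± 0.50; limma adjusted p = 0.0016). Its rhythm call was marginal (limma adjusted p = 0.0481) and was lost with edgeR, with DESeq2 and in 23 of 36 cases when 1 library was left out. Tfrc, the transferrin receptor that takes up iron, had 6.43, 7.68 and 11.8 RPM in AF livers at ZT 18, against 24.0, 30.6 and 33.2 RPM in NF livers. It was rhythmic in both arms, with its NF peak at ZT 16.7 and an AF peak before it (shift -6.68 h). Anks4b, an ankyrin repeat protein of epithelial cells, peaked at ZT 7.39 ± 0.61 in AF and ZT 14.69 ± 0.66 in NF livers, although its call did not hold with the vehicle-injected arm as reference.

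Time by time, 71 genes were higher and 96 lower in AF livers at ZT 2 (0.578% and 0.781% of 12292, 1.36% in all). At ZT 6 the counts were 432 and 335 (3.51% and 2.73%, 6.24% in all) and at ZT 10 475 and 407 (3.86% and 3.31%, 7.18% in all). At ZT 14 they were 635 and 462 (5.17% and 3.76%, 8.92% in all). At ZT 18 they were 286 and 337 (2.33% and 2.74%, 5.07% in all) and at ZT 22 420 and 482 (3.42% and 3.92%, 7.34% in all). The gene lists differed by time of day in a way that the totals did not show. Heat shock genes were higher in AF livers in 7 of 25 cases at ZT 6 and at ZT 10 and lower in 7 at ZT 14 and 6 at ZT 18, and their median difference was 0.35 at ZT 6 and -0.37 at ZT 18. Cholesterol genes were lower in 7 of 25 cases at ZT 22 (median -0.42). Over all genes the median difference lay between 0.00 and 0.03 at the 6 times, as the scaling of the libraries sets the typical gene near 0. Leaving out 1 library moved these totals by more than 1.5 times in the following cases. At ZT 2 the count was 87, 44 or 35 without AF replicate 1, 2 or 3 and 80, 48 or 75 without NF replicate 1, 2 or 3 of that time, and 252 without AF replicate 2 of ZT 22. At ZT 6 it was 251 or 444 without AF replicate 2 or 3 and 254 or 485 without NF replicate 2 or 3. At ZT 10 it was 340, 382 or 567 without AF replicate 1, 2 or 3 and 498 or 282 without NF replicate 1 or 2. At ZT 14 it was 600, 564 or 533 without AF replicate 1, 2 or 3 and 632 without NF replicate 2. At ZT 18 it was 215 or 219 without AF replicate 1 or 2 and 168 or 366 without NF replicate 2 or 3. At ZT 22 it was 511 or 541 without AF replicate 2 or 3 and 383 without NF replicate 2.

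**Figure D4:**
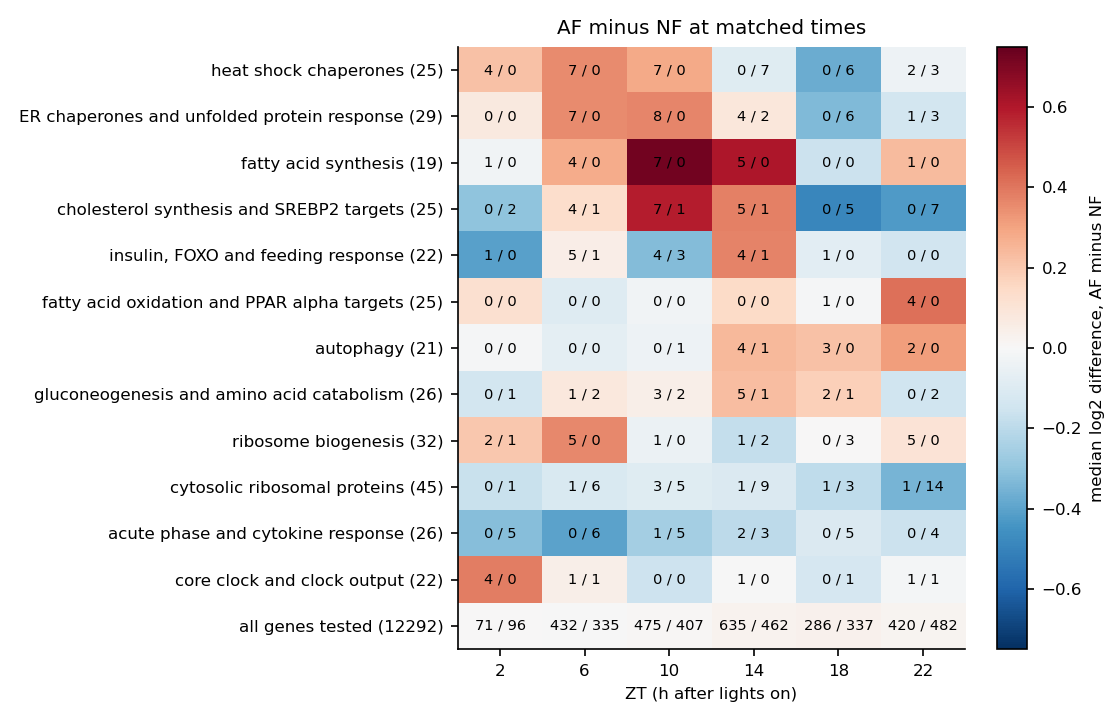
Median log2 difference, AF minus NF, of 12 gene lists and of all tested genes (rows) at each ZT (columns, h), as colour, with the number of genes called higher and lower in AF livers written in each cell. Chaperone and cholesterol lists are above 0 at ZT 6 and ZT 10 and below 0 at ZT 18. The row of all genes stays near 0, where the scaling of the libraries sets the typical gene.

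Averaged over the day, 5094 genes differed (41.4%), 2725 higher and 2369 lower in AF livers, and 936 of them by at least 1.5-fold (4.19% higher and 3.42% lower); without the libraries numbered 2 in both arms the count was 2908. It also moved with the choice of night-fed arm. With the Albumin-Cre arm as reference 2264 genes were called (18.3%) and with the vehicle-injected arm 3393 (27.6%), and 694 genes were called with the same sign in all 3 comparisons, which share the AF libraries. The 694 comprised 357 higher and 337 lower genes.

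Genes called with the same sign in all 3 included acute phase proteins, which the liver secretes in inflammation. Of 26 acute phase and cytokine response genes, 15 were lower and 4 higher in AF livers (median -0.27), against 19.3% and 22.2% of all genes. With the Albumin-Cre reference 7 were lower and 5 higher (8.58% and 9.71% of all genes). With the vehicle-injected one 13 were lower and 4 higher (13.8% of all genes each way). Saa1 (serum amyloid A) had a lowest, median and highest level of 17.7, 25.5 and 59.3 RPM in AF livers and 131, 184 and 331 RPM in NF livers, on values rescaled over 5 arms. The 2 arms did not overlap (log2 difference -2.77 ± 0.13, n = 18 each; limma adjusted p = 2.23e-16). The differences were -2.03 and -1.51 against the Albumin-Cre and vehicle-injected arms. Median Saa1 was 117 RPM in Albumin-Cre night-fed livers and 52.5 RPM in vehicle-injected night-fed livers, whose highest library reached 1435 RPM. Mt1, a metallothionein that binds zinc, had a lowest, median and highest level of 8.01, 15.3 and 95.6 RPM in AF livers and 65.3, 167 and 388 RPM in NF livers, with some overlap (-3.18 ± 0.24; limma adjusted p = 4.99e-11). Saa1 and Mt1 each have a near-identical neighbour, Saa2 and Mt2, which moved the same way (-3.60 and -3.45), and reads could be split within these pairs.

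Several metabolic genes were also higher against all 3 references. Ppp1r3b was higher by 1.17 ± 0.15 against NF livers (limma adjusted p = 3.35e-07) and by 0.86 and 0.88 against the Albumin-Cre and vehicle-injected arms. Ceacam1, which promotes insulin clearance, was higher by 1.24 ± 0.09, 0.44 and 0.49. Elovl6, a fatty acid elongase, was higher by 0.96 ± 0.17, 0.61 and 0.70. Insc, a cell polarity adaptor, was higher by 1.25 ± 0.14, 0.59 and 1.04. For these 4 genes the difference was largest against NF livers. Cytosolic ribosomal protein genes were lower in 22 of 45 cases and higher in 6 (median -0.14), against 19.3% and 22.2% of all genes. With the Albumin-Cre reference 9 were lower and 2 higher (8.58% and 9.71% of all genes), and with the vehicle-injected one 22 were lower and 3 higher (13.8% of all genes each way). The log2 differences of Rpl41 were -1.02, -0.49 and -0.46.

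Some of the large daily differences did not hold against the other night-fed arms. Gapdh, a glycolytic enzyme with many pseudogenes that can share its reads, had a median of 17.6 RPM in AF livers (7.74 to 25.8), 48.3 RPM in NF livers (27.0 to 86.4), 19.4 RPM in Albumin-Cre livers (6.42 to 26.7) and 17.3 RPM in vehicle-injected livers (5.10 to 27.9). Snord89, a small nucleolar RNA gene, had a median of 29.1 RPM in AF livers (4.82 to 42.0), 4.11 RPM in NF livers (1.55 to 12.4), 26.9 RPM in Albumin-Cre livers and 31.1 RPM in vehicle-injected livers. The median of NF livers thus stood apart from those of the other night-fed arms in both genes. Apob, the structural protein of very low density lipoproteins, averaged 575 ± 107 RPM in AF livers (SD within times, n = 18 an arm), 270 ± 146 RPM in NF livers, 550 ± 81 RPM in Albumin-Cre livers and 469 ± 171 RPM in vehicle-injected livers. With NF, Albumin-Cre and vehicle-injected livers as reference, in that order, heat shock genes differed in rhythm in 11 of 25, 9 of 24 and 6 of 25 cases, ER genes in 13, 15 and 10 of 29 and cholesterol genes in 16, 19 and 13 of 25, against 3.13%, 5.51% and 2.21% of all genes. In the daily mean, 6 heat shock genes were higher and 4 lower against NF livers (22.2% and 19.3% of all genes). Against the Albumin-Cre and vehicle-injected arms 10 and 11 were higher (9.71% and 13.8% of all genes).

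**Figure D5:**
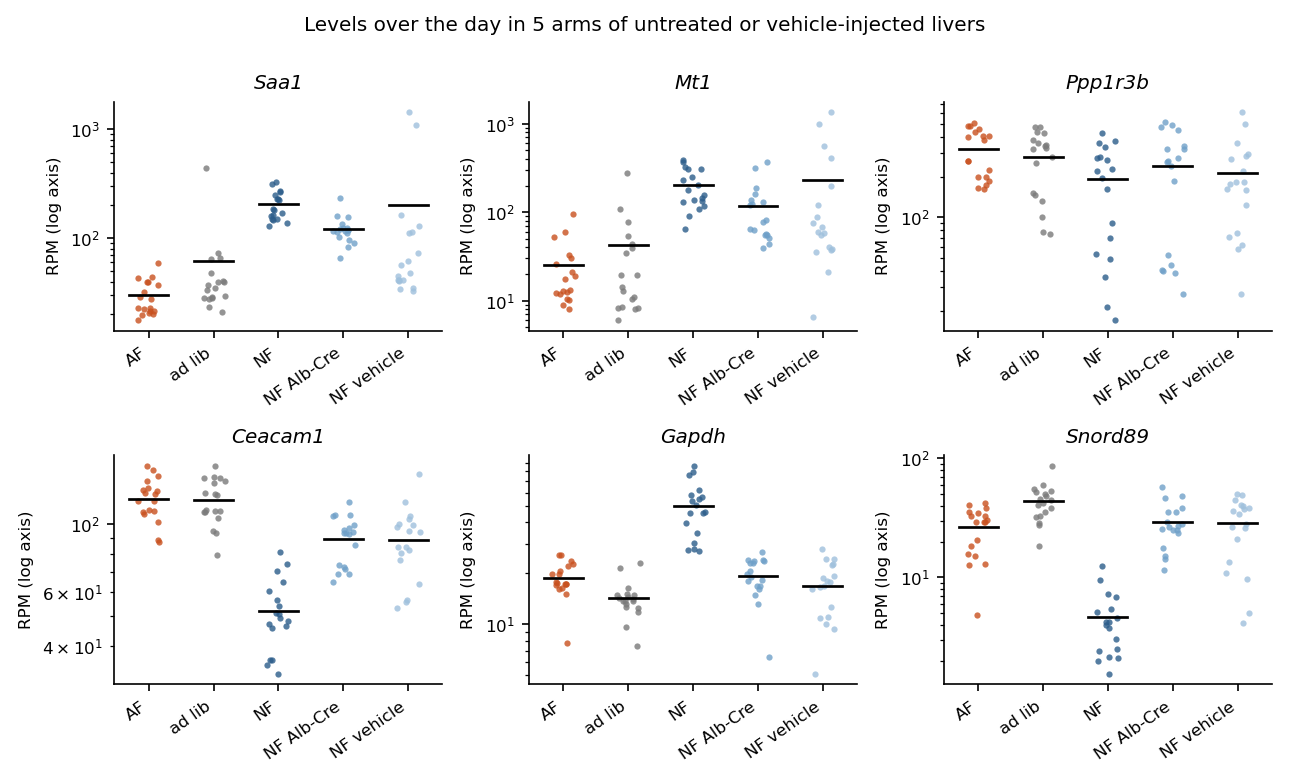
Level of 6 genes in each library (RPM, log axis, libraries rescaled together) in AF, ad libitum, NF, Albumin-Cre night-fed and vehicle-injected night-fed livers, 18 libraries an arm, with a line at the mean. The means of Saa1 and Mt1 are lower in AF livers than in each night-fed arm, whereas for Gapdh and Snord89 the NF mean alone lies apart.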

How the data were processed

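Liver RNA of 36 libraries (18 AF, 18 NF) was sequenced with the Lexogen QuantSeq 3′ kit, per the labels' protocols, and the submitters' processing notes name STAR 2.7.3a, SAMtools and the build mm10, also written GRCm38.p6. No source used here gives the counting program or how libraries were scaled. What the authors deposited is a scaled signal per gene: 100% of values were whole multiples, within 0.01 read, of one step per library, so whole reads were recovered from the steps. The authors' file held 144 further columns of other arms, which were not used. Reads were rescaled with TMM (edgeR 4.0.16) to RPM. Of 15907 genes, the 12292 that averaged 1 RPM or more were tested on log2(RPM + 0.5) with limma 3.58.1 (R 4.3.3, mean-variance trend, one mean per arm and time, 24 residual degrees of freedom, Benjamini-Hochberg adjusted p under 0.05), so fold changes of low genes are understated. Contrasts were the mean over 6 times, the 24 h cosine and sine terms jointly, and each time. An arm's rhythm was fitted in that arm alone. Amplitudes of weak rhythms are biased upward by noise.

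The edgeR quasi-likelihood test on the recovered reads called 5129 genes in the daily mean and 385 in the rhythm difference. On simulated counts, 192 of 200 genes changed by 1 log2 unit in the daily mean and 163 of 200 with a rhythm of that amplitude in one arm were recovered. Gene lists and members were chosen with earlier results of these data known, so list shares above the share over all genes may be partly built in. Named genes came from the clock list, the up to 6 smallest adjusted p-values of each list, the 10 largest daily mean and amplitude differences each way, the 4 largest differences each way at a time and the 8 largest peak shifts; the text gives part of these, and results of some genes are not reported here. Same-numbered AF and NF libraries of a time did not deviate together (median correlation -0.0068). Within NF livers, libraries of different times that share a number did (median 0.217, against -0.09 for other numbers; in AF livers -0.0037 and -0.015), so they may not be independent, which the tests assume. Promoters came from RefSeq (GRCm38.p6).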

Additional observations from a re-analysis of the deposited data

Results flagged for a closer look

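The difference between AF and NF livers changed with the time of day in 142 genes, by a test of the difference itself (limma, joint test over the 6 times, adjusted p under 0.05). Of these, 24 were called higher in AF livers at one time and lower at another, and 10 of the 24 are named in the text. In the cytosolic chaperones the sign turned between the light phase and ZT 14: the log2 difference, AF minus NF, was 0.68 at ZT 6 and -1.02 at ZT 14 for Hsph1, 0.82 and -0.64 at the same times for Hsp90aa1, 0.60 and -0.53 for Chordc1, and 0.64 at ZT 2 and -0.80 at ZT 14 for Dnaja1. Among the other genes with a turn between ZT 6 and ZT 14, Tsku stood at 1.79 and -1.07 and Anks4b at 0.89 and -0.57. Between ZT 6 and ZT 18 the difference was 0.77 and -0.88 for Hspa5 and 1.33 and -1.74 for Tfrc. Alas1 was higher by 1.82 at ZT 2 and lower at ZT 14 (-1.80). Klf9 turned the other way round, with -0.88 at ZT 10 and 0.70 at ZT 14.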

How the results depend on the processing

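The daily mean count (5094) and the rhythm difference count (385) stayed within 1.5 times under other scalings, filters on low genes and pseudocounts, edgeR, the ad libitum arm in the fit and thinning to equal depth. The daily mean count was 2264 with the Albumin-Cre arm and 3393 with the vehicle-injected arm as reference, and 936 with a minimum of 1.5-fold. The rhythm difference count was 682 with the Albumin-Cre arm, 578 with DESeq2 and 142 for any change over time, which spreads the test over 5 terms; tested that way, 471 genes varied over the day in AF livers and 1448 in NF livers. DESeq2 called 597, 1247, 1857 and 1306 genes at ZT 2, 6, 10 and 18, and with the ad libitum arm in the fit 376 and 960 were called at ZT 2 and 18. The replicate numbers do not pair the arms by the labels; with them as a replicate block, 264 genes were called at ZT 2, and the other counts stayed within 1.5 times (5310 in the daily mean, 477 in the rhythm difference). With a replicate block within each arm the counts were 600 for the rhythm difference and 435, 1271, 1467, 1152 and 1394 at ZT 2, 6, 10, 18 and 22. Leaving out the libraries of one replicate number gave 2908 to 4483 genes in the daily mean, 38 to 127 in the rhythm difference, 233 to 445 rhythmic in AF livers and 1073 to 1445 in NF livers, and 8 to 105, 27 to 448, 50 to 475, 134 to 471, 15 to 400 and 56 to 799 at ZT 2, 6, 10, 14, 18 and 22; these fits hold fewer samples, and the lowest count came without number 2 in all but the AF rhythms. Of the named daily means, Arntl was 0.076 and 0.26 against the Albumin-Cre and vehicle-injected arms, Snord89 -0.20 against the Albumin-Cre arm and Gapdh 0.22 against the vehicle-injected arm, each with the sign turned and not past the threshold; the cause was not tested. Depth limits the lowest genes: 3 reads are 0.619 RPM in the shallowest NF library.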

Other observations

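Outside the lists described above, 6 of 14 cell cycle and replication genes were higher in AF livers in the daily mean (22.2% of all genes were), with a median log2 difference of 0.22. Against the Albumin-Cre arm 2 of 15 and against the vehicle-injected arm 3 of 14 were higher, near the 9.71% and 13.8% of all genes. Xenobiotic metabolism genes gave 5 higher and 9 lower of 20 against NF livers (22.2% and 19.3% of all genes). They gave 5 higher and 3 lower against the Albumin-Cre arm (9.71% and 8.58%), and 5 higher and 2 lower against the vehicle-injected arm (13.8% each way). Ces2a, a carboxylesterase, was lower against each of the 3 arms (-0.46 ± 0.07, -0.29 and -0.20). Apolipoprotein and lipoprotein genes changed in 16 of 20 cases, 7 higher and 9 lower (41.4% of all genes changed), with 6 higher and 3 lower against the Albumin-Cre arm (18.3%) and 3 higher and 6 lower against the vehicle-injected arm (27.6%). Lpl, the lipoprotein lipase, was lower in AF livers by each reference (log2 differences -0.56 ± 0.11, -1.05 and -1.02 against the NF, Albumin-Cre and vehicle-injected arms). Trib3, a pseudokinase induced by ATF4 and by fasting, had 2.89, 4.61 and 7.27 RPM in AF livers at ZT 6, against 16.4, 16.5 and 16.7 RPM in NF livers. Its libraries did not overlap, its daily mean was lower (-0.67 ± 0.14; limma adjusted p = 0.000461, and 0.0535 without the libraries numbered 1), and it was lower also against the other 2 arms (-1.01 and -1.08).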
